A study of Gallus gallus with 9 samples.

Results

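Transcripts of 7 genes of the gp130 and JAK/STAT cytokine pathway, *IL6ST*, *LIFR*, *JAK1*, *JAK2*, *STAT3*, *SOCS1* and *SOCS3*, were followed in the retinal pigment epithelium (RPE) of the chick embryo after removal of the retina. The 7 genes were chosen by symbol. Each had a row among the 16635 genes of the expression table, and all 7 were among the 16535 genes tested. The study itself had drawn attention to *IL6ST*, *STAT3* and *SOCS3* from these same libraries, so their direction here is not independent evidence.

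RNA was sequenced from 9 libraries of RPE of White Leghorn chicken embryos at embryonic day 4, with 3 libraries in each of 3 groups and, per the study's methods, a separate embryo for each library. The reprogramming RPE (rRPE) came from eyes whose retina had been removed and which had received a bead soaked in fibroblast growth factor 2 (FGF2), collected 6 h after surgery. The transiently reprogrammed RPE (t-rRPE) came from eyes collected 6 h after retina removal alone, and the RPE group was intact epithelium from unoperated eyes. The study describes no sham operation and gives the intact RPE only as embryonic day 4, without an hour of collection. Against the RPE, the effects of retina removal, of the surgery itself and of any difference in age therefore cannot be told apart. In the rRPE, only epithelium next to the bead was taken by laser capture, and no group carried a bead without FGF2, so the effects of the growth factor, of the bead and of the place of capture cannot be told apart.

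IL6ST (gp130) is the signal-transducing receptor subunit shared by the interleukin-6 family of cytokines, and pairs with LIFR when the ligand is leukemia inhibitory factor or ciliary neurotrophic factor. Ligand binding activates the receptor-bound kinases JAK1 and JAK2, which phosphorylate STAT3, and STAT3 then enters the nucleus and switches on target genes. *SOCS3* is one of those targets in mammals, and its protein binds gp130 and the kinases to shut the signal down, which makes the pathway a feedback loop. In zebrafish, gp130 and STAT3 signalling is known to promote retina regeneration from Müller glia.

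Values are normalized counts, that is, reads on a gene divided by a size factor of the library. All libraries came from laser-captured tissue with little RNA, amplified before sequencing. The paper warns that RNA from laser capture can be scarce and degraded, which may lower the sensitivity to differential expression. Whether this affected genes at or near 0 reads in single libraries was not tested. The libraries held 26167206 to 45563924 reads on genes, and reads were found on 13327 to 14077 genes in a library. Of the 14 RPE marker genes listed, all 14 were found, with a summed level of 220353 to 364341 normalized counts in the rRPE, 313689 to 380549 in the t-rRPE and 310331 to 354295 in the RPE. The sums overlapped between the groups, but single markers did not all do so. *MITF*, the transcription factor of pigment cell identity, was at 1210 to 1908 normalized counts in the rRPE and 1548 to 2886 in the t-rRPE, against 3911 to 5933 in the RPE, and was called lower in the rRPE (log2 fold change −1.78; limma adjusted p = 0.0140). *OTX2*, a transcription factor of the same epithelium, was at 6893 to 9273 in the rRPE, 16383 to 19274 in the t-rRPE and 13268 to 14485 in the RPE, and was called lower in the rRPE than in the t-rRPE (−1.10; adjusted p = 0.0289). Fold changes are differences of mean log2(normalized count + 1) from limma with 95% intervals from the same fit, and a gene was called at a Benjamini-Hochberg adjusted p of at most 0.05 over all genes tested together with a log2 fold change of 1 or more in size.

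In the rRPE, *IL6ST*, *STAT3* and *SOCS3* rose relative to the intact RPE, and the other 4 genes were not called. These 3 of 7 genes compare with 0.677% of all genes tested that were called higher and 1.03% called in either direction in the same comparison. In the t-rRPE, 0 of the 7 were called against the RPE by limma, where 0.671% of all genes were called in either direction and 0.357% higher. *IL6ST*, *STAT3* and *SOCS3* nevertheless had every t-rRPE library above every RPE library, as 7.32% of all genes had, and these 3 passed an unadjusted limma p of 0.05, as 12.4% of all genes did. Neither *LIFR* nor *JAK1* nor *JAK2* was called in any of the 3 comparisons. The study, by DESeq2 at the same thresholds, reports *STAT3* as induced in the t-rRPE, where limma did not call it here. It reports *IL6ST*, *STAT3* and *SOCS3* as up-regulated in the rRPE.

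**Figure D1:**
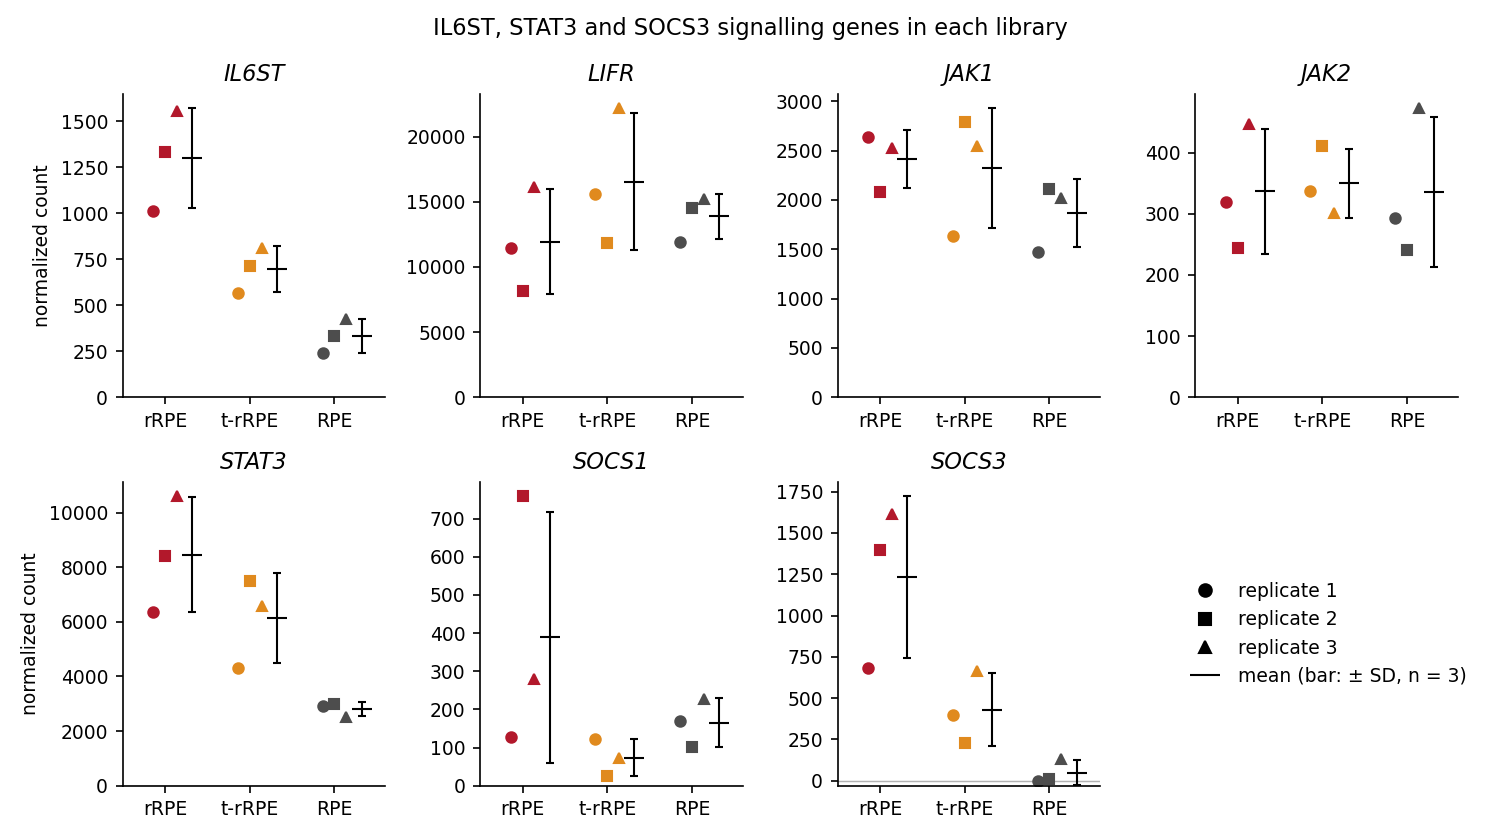
Normalized counts (linear axes) of the 7 genes in each library, 1 panel a gene, with rRPE, t-rRPE and RPE from left to right; points are libraries, shaped by replicate number, with the group mean ± SD (n = 3) to their right. *IL6ST* and *SOCS3* have all rRPE libraries above all t-rRPE libraries and these above all RPE libraries, and *LIFR* and *JAK2* overlap in all 3 groups.

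*IL6ST* (ENSGALG00000014716), the gp130 receptor subunit, was at 1015.2, 1332.8 and 1556.4 normalized counts in rRPE replicates 1, 2 and 3. It was at 564.2, 714.9 and 810.7 normalized counts in the t-rRPE and at 242.2, 332.4 and 425.7 in the RPE. The 9 libraries therefore stood in 3 separate blocks, with the rRPE at the top and the intact RPE at the bottom. The group means were 1301.5 ± 272.0 in the rRPE, 696.6 ± 124.2 in the t-rRPE and 333.4 ± 91.8 in the RPE (SD, n = 3 each).

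Relative to the RPE, *IL6ST* was called 3.94-fold higher in the rRPE (95% interval 2.33 to 6.64; log2 fold change 1.98 ± 0.34 SE; limma adjusted p = 0.0236). The lowest rRPE library lay 2.38 times above the highest RPE library. In the t-rRPE the log2 fold change against the RPE was 1.08 (95% interval 0.33 to 1.84; limma adjusted p = 0.237), which was not called. Between rRPE and t-rRPE it was 0.89 (0.14 to 1.65; limma adjusted p = 0.488), also not called, although the groups did not overlap.

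The call of *IL6ST* in the rRPE against the RPE was lost without any 1 of the 6 libraries compared. Its adjusted p was 0.0578, 0.117 and 0.0886 without rRPE replicate 1, 2 or 3, and 0.0625, 0.0947 and 0.0587 without RPE replicate 1, 2 or 3, while its log2 fold change stayed between 1.77 and 2.17 over all 9 omissions of a library. Calls over all genes moved too, from 170 in this comparison to between 0 and 187 with a library left out. With edgeR on recovered reads the adjusted p of *IL6ST* was 0.0322.

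*LIFR* (ENSGALG00000003733), the partner of gp130 in the receptor for leukemia inhibitory factor, was at 11474.0, 8170.0 and 16173.3 normalized counts in the rRPE, at 15579.7, 11825.1 and 22212.2 in the t-rRPE, and at 11937.3, 14543.1 and 15220.3 in the RPE. All 3 groups overlapped. The log2 fold change was −0.27 in the rRPE against the RPE (95% interval −0.84 to 0.31; limma adjusted p = 0.747) and 0.21 in the t-rRPE against the RPE (−0.37 to 0.79; adjusted p = 0.772), and the value for the t-rRPE turned to −0.027 without t-rRPE replicate 3. Between rRPE and t-rRPE it was −0.48 (−1.05 to 0.10; adjusted p = 0.610). In the rRPE against the RPE, the interval of *LIFR*, with its upper limit at 0.31, lay wholly below that of *IL6ST* (log2 fold change 1.98). In the t-rRPE against the RPE, the interval of *LIFR*, −0.37 to 0.79, overlapped that of *IL6ST*, 0.33 to 1.84. Whether the change of *LIFR* differed from that of *IL6ST* was not tested in either group.

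*JAK1* (ENSGALG00000011031), the kinase most closely tied to gp130 in mammals, was at 2641.6, 2077.5 and 2526.7 normalized counts in the rRPE, at 1634.1, 2790.4 and 2545.5 in the t-rRPE and at 1469.3, 2114.9 and 2016.4 in the RPE. The lowest library was an RPE library and the highest a t-rRPE library, and the groups overlapped. Against the RPE its log2 fold change was 0.38 in the rRPE (95% interval −0.17 to 0.94; limma adjusted p = 0.634) and 0.30 in the t-rRPE (−0.26 to 0.85; adjusted p = 0.673). Between rRPE and t-rRPE it was 0.09 (−0.47 to 0.64; adjusted p = 0.960) and turned to −0.15 without t-rRPE replicate 1.

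*JAK2* (ENSGALG00000015027), which also serves the receptors for growth hormone, prolactin and interferon gamma, was at 319.8, 244.4 and 446.6 normalized counts in the rRPE, at 337.5, 411.6 and 301.1 in the t-rRPE and at 294.1, 240.1 and 473.4 in the RPE. Both the highest and the lowest of the 9 values were RPE libraries. The log2 fold change against the RPE was 0.02 in the rRPE (95% interval −0.99 to 1.03; limma adjusted p = 1) and 0.11 in the t-rRPE (−0.90 to 1.12; adjusted p = 0.967). The sign of either value turned when single libraries were left out, and that of the rRPE turned under quantile and upper-quartile scaling. Between rRPE and t-rRPE it was −0.09 (−1.10 to 0.92; adjusted p = 0.991). The intervals are wide enough that the value of *IL6ST* in the t-rRPE, 1.08, lies within that of *JAK2* in the same comparison.

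*STAT3* (ENSGALG00000003267), the transcription factor that carries the gp130 signal to the nucleus, was at 6365.4, 8423.8 and 10596.4 normalized counts in the rRPE. It was at 4299.1, 7512.6 and 6578.1 in the t-rRPE and at 2928.1, 3008.1 and 2510.5 in the RPE. Every operated library exceeded every intact library, while rRPE and t-rRPE overlapped. The group means were 8461.9 ± 2115.7 in the rRPE, 6130.0 ± 1653.0 in the t-rRPE and 2815.6 ± 267.2 in the RPE (SD, n = 3 each).

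The rise of *STAT3* in the rRPE against the RPE was 2.95-fold (95% interval 2.05 to 4.24; log2 fold change 1.56 ± 0.24 SE; limma adjusted p = 0.0131), and the lowest rRPE library was 2.12 times the highest RPE library. In the t-rRPE the log2 fold change against the RPE was 1.09 (0.56 to 1.61), with a limma adjusted p of 0.0779, so the gene was not called there. The difference between rRPE and t-rRPE was 0.47 (−0.05 to 1.00; limma adjusted p = 0.576).

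As for *IL6ST*, the call of *STAT3* in the rRPE against the RPE was lost without any 1 of the 6 libraries compared. The adjusted p was 0.0553, 0.117 and 0.0833 without rRPE replicate 1, 2 or 3, and 0.0797, 0.100 and 0.108 without RPE replicate 1, 2 or 3, with log2 fold changes of 1.38 to 1.75 over all 9 omissions. By DESeq2 on recovered reads, *STAT3* and *IL6ST* were called in the t-rRPE against the RPE as well, at adjusted p = 6.1e-04 for *STAT3* and 0.0497 for *IL6ST*, while edgeR called neither.

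*SOCS3* (ENSGALG00000027786), the feedback inhibitor of gp130, was at 682.2, 1399.6 and 1616.0 normalized counts in the rRPE, which came from 672, 1340 and 1574 reads. It was at 398.2, 225.8 and 663.4 normalized counts in the t-rRPE. In the RPE it was at 0, 7.8 and 133.7 normalized counts, from 0, 10 and 174 reads. The 3 groups did not overlap, but on a log scale the RPE libraries differed from each other more than those of either operated group.

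On the log2(normalized count + 1) scale, *SOCS3* was called higher in the rRPE than in the RPE by 6.77 ± 1.38 SE (95% interval 3.74 to 9.81; limma adjusted p = 0.0449). That value depends on the library with 0 reads, where 3 reads would be worth 2.88 normalized counts. The ratio of the group means was 26.1, and the lowest rRPE library was 5.10 times the highest RPE library. In the t-rRPE the log2 fold change against the RPE was 5.21 (2.17 to 8.24; adjusted p = 0.158), with a ratio of means of 9.10. Between rRPE and t-rRPE it was 1.56 (−1.47 to 4.60; adjusted p = 0.767), and the lowest rRPE library was only 1.03 times the highest t-rRPE library.

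Of the 3 calls, that of *SOCS3* was the least stable to the choice of test and library. When a library was left out it was kept only without RPE replicate 3, at an adjusted p of 0.0342, and each of the other 8 omissions gave 0.125 to 0.262. It was also lost with edgeR (adjusted p = 0.188) and with an offset of 0.5 (0.0648), and kept with DESeq2 (log2 fold change 4.71; adjusted p = 0.0383). Over the omissions its log2 fold change ranged from 5.07 to 8.61.

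*SOCS1* (ENSGALG00000007158), which binds JAK kinases directly and is best known for restraining interferon signalling, was at 127.9, 759.3 and 280.3 normalized counts in the rRPE. It was at 121.5, 24.3 and 73.0 in the t-rRPE and at 169.1, 100.1 and 227.5 in the RPE. The rRPE libraries spanned the widest range and overlapped those of the RPE, and all 3 lay above the t-rRPE, the lowest by a factor of 1.05. Its log2 fold change was 0.94 in the rRPE against the RPE (95% interval −0.96 to 2.83; limma adjusted p = 0.729), −1.37 in the t-rRPE against the RPE (−3.26 to 0.53; adjusted p = 0.565) and 2.30 in the rRPE against the t-rRPE (0.41 to 4.20; adjusted p = 0.467).

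In the RefSeq annotation of GRCg7b, a later build than the one the reads were counted on, *SOCS1* overlaps *RMI2*, and the authors' counting did not use strand, so reads in the shared stretch cannot be assigned to either gene with certainty. *RMI2* was at 846.7, 639.2 and 504.1 normalized counts in the rRPE, at 1578.8, 1152.6 and 534.4 in the t-rRPE and at 611.2, 638.2 and 705.4 in the RPE. Its group means were in another order than those of *SOCS1*, with the t-rRPE highest and the intact RPE lowest. In that annotation *IL6ST*, *LIFR* and *JAK2* each overlap an uncharacterised locus that was not analysed here.

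**Figure D2:**
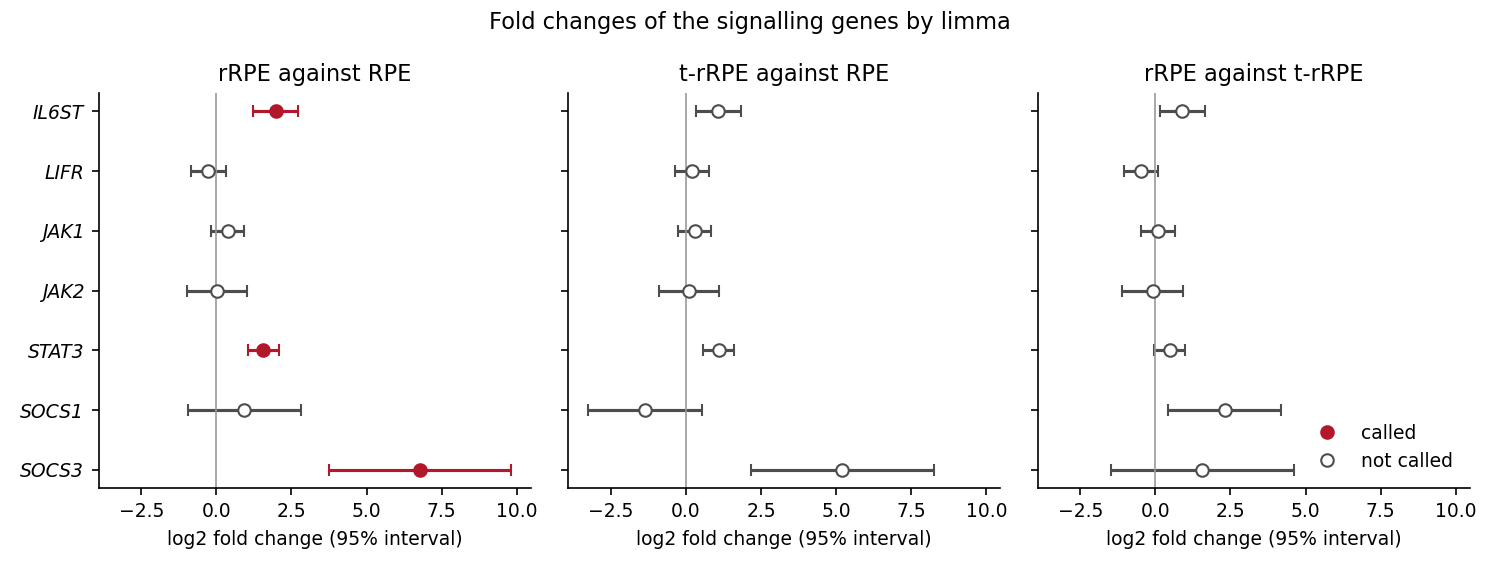
Log2 fold changes of the 7 genes with their 95% intervals from limma, in 3 panels for rRPE against RPE, t-rRPE against RPE and rRPE against t-rRPE; filled points passed the call and the vertical line is at no change. *IL6ST* (1.98), *STAT3* (1.56) and *SOCS3* (6.77) are the called genes, all in rRPE against RPE, and the intervals of *SOCS1* and *SOCS3* are the widest.

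The comparison of the injured epithelia with and without FGF2 gave 0 called genes among the 7 by limma, by edgeR and by DESeq2, where limma called 0.0544% of all genes tested in either direction and 0.0423% higher. At an unadjusted limma p of 0.05 it gave 2 of 7, *IL6ST* and *SOCS1*, against 9.31% of all genes. All 3 rRPE libraries lay above all 3 t-rRPE libraries for 3 of the 7 genes, *IL6ST*, *SOCS1* and *SOCS3*, against 6.84% of all genes.

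All 3 rRPE libraries lay above all 3 RPE libraries for *IL6ST*, *STAT3* and *SOCS3*, as for 9.71% of all genes. The median log2 fold change of the 7 genes was 0.94 in the rRPE and 0.30 in the t-rRPE relative to the RPE, and 0.47 in the rRPE relative to the t-rRPE, beside medians of 0 over all genes tested. The mean level was ordered rRPE over t-rRPE over RPE for 4 of the 7 genes, *IL6ST*, *JAK1*, *STAT3* and *SOCS3*, as for 16.0% of all genes tested. The libraries themselves were fully in that order for *IL6ST* and *SOCS3*, as for 57 of 16535 genes (0.345%).

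The wider pathway was read from lists of 81 genes covering ligands, receptors, kinases, STATs, inhibitors and genes described as STAT3 targets in mammals. Of these, 56 were matched by symbol and tested, 49 of them besides the 7 described above, and the other 25 were not analysed here. In the rRPE against the RPE, 1 of the 49, *FOS*, was called higher by limma and 0 were called lower, where 1.03% of all genes were called. In the t-rRPE against the RPE and in the rRPE against the t-rRPE, 0 of all 56 were called by limma and by edgeR, and 9 passed an unadjusted limma p of 0.05 in each comparison, beside 12.4% of all genes in the t-rRPE against the RPE and 9.31% in the rRPE against the t-rRPE. DESeq2 called 5 of the 56 in the t-rRPE against the RPE, 9 in the rRPE against the RPE and 2 in the rRPE against the t-rRPE, where it called 3.07%, 3.48% and 1.39% of all genes in these comparisons. The median log2 fold change of the 49 genes was 0.31 in the rRPE against the RPE, −0.22 in the t-rRPE against the RPE and 0.37 in the rRPE against the t-rRPE, beside 0 over all genes tested.

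**Figure D3:**
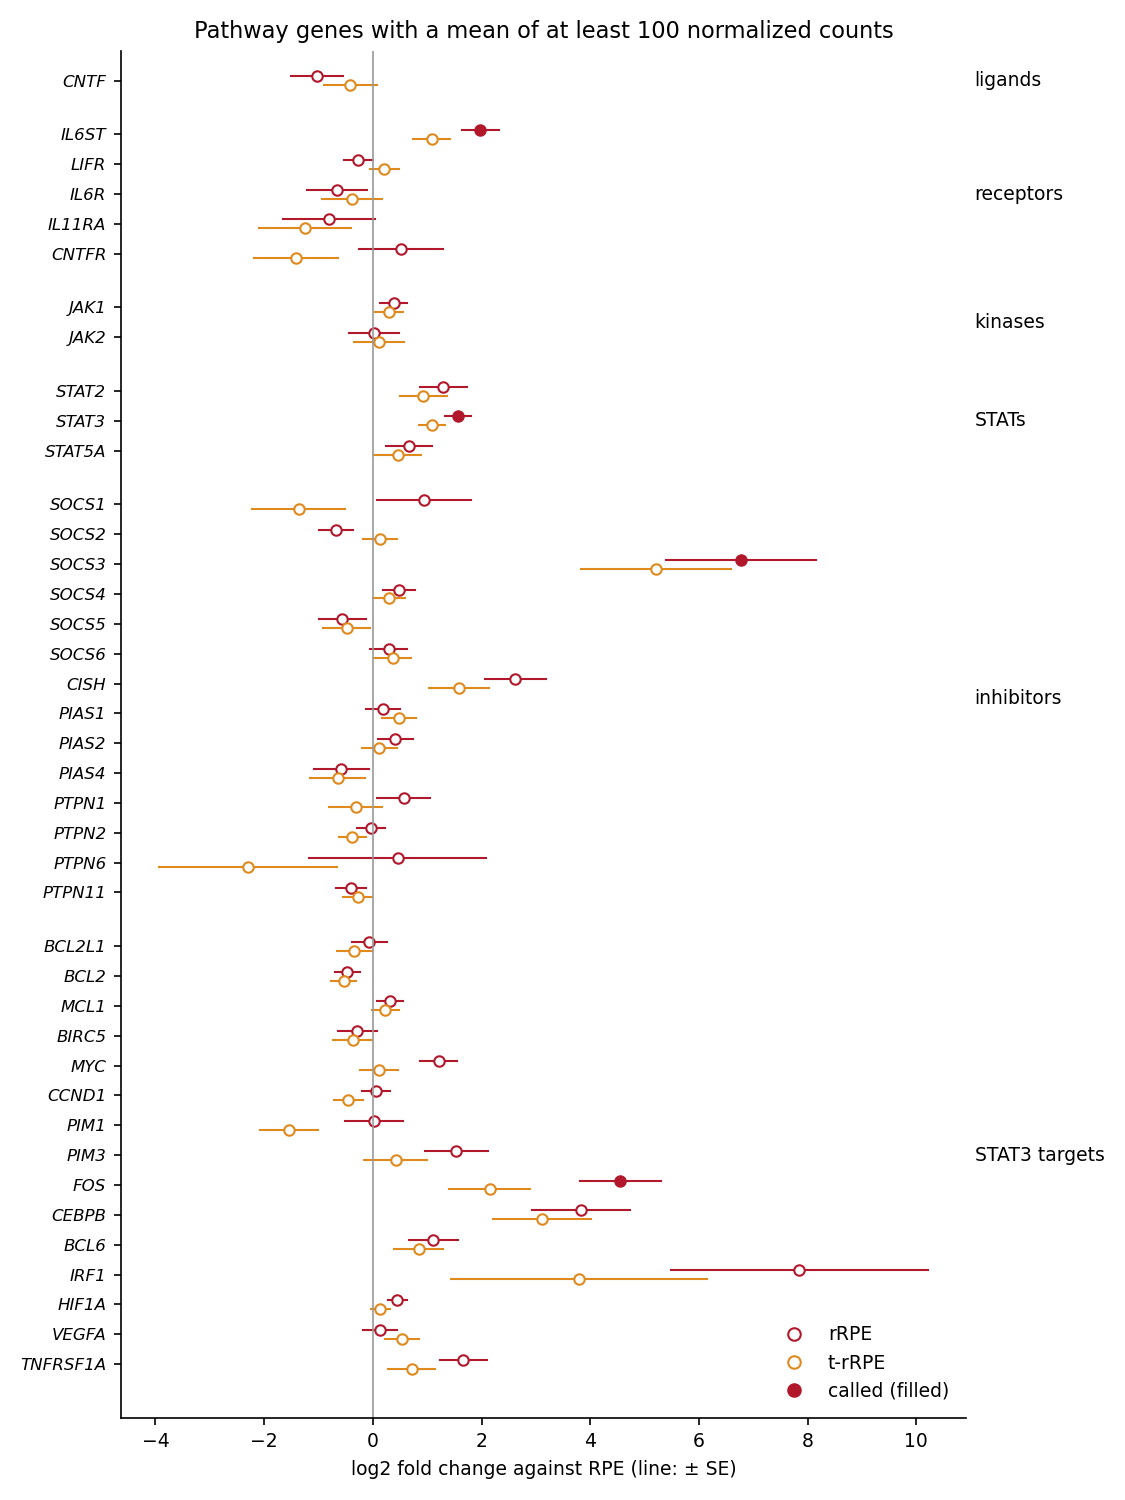
Log2 fold changes against the RPE of 40 listed pathway genes with a mean of at least 100 normalized counts, grouped by role, with the rRPE and the t-rRPE as separate points, lines of ± 1 SE and called values filled. The filled points are the rRPE values of *IL6ST*, *STAT3*, *SOCS3* and *FOS*, and *STAT2*, *STAT3* and *STAT5A* lie above 0 in both groups.

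Of 12 ligands listed, 3 were found. *IL6*, the founding cytokine of the family, is named here outside the rule on levels and was nearly absent, with 5 reads in rRPE replicate 3, 12 reads in t-rRPE replicate 2, 9 reads in RPE replicate 3 and none in the other 6 libraries. *CNTF*, ciliary neurotrophic factor, was present in every library, at 281.2, 287.2 and 1004.1 normalized counts in the rRPE, 590.3, 565.5 and 883.7 in the t-rRPE and 912.0, 781.4 and 975.9 in the RPE. Its log2 fold change was −1.03 in the rRPE (95% interval −2.09 to 0.02; limma adjusted p = 0.433) and −0.41 in the t-rRPE against the RPE (adjusted p = 0.752), and rRPE replicate 3 stood at the level of the intact RPE.

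Of the receptors listed, *IL6ST* was the only one called by limma. *IL31RA*, a receptor chain for interleukin-31 named here after its values were seen, was at 10.2, 0 and 110.9 normalized counts in the rRPE, 0 in all t-rRPE libraries and 152.8, 75.1 and 63.0 in the RPE. DESeq2 called it lower in the t-rRPE than in the RPE (adjusted p = 0.00438) and higher in the rRPE than in the t-rRPE (0.0412), where limma gave adjusted p = 0.132 and 0.562. The median log2 fold change over the 8 of 11 receptors found was −0.46 in the rRPE and −0.82 in the t-rRPE against the RPE. It was −1.25 in the t-rRPE with *CSF3R*, which had no read in the t-rRPE or the RPE, left out. For that value, the other genes at the floor of 3 reads were set to their bound. *IL6R*, which encodes the chain that binds interleukin-6, was at 171.6, 201.6 and 165.3 normalized counts in the rRPE, 151.9, 386.4 and 170.7 in the t-rRPE and 269.1, 237.0 and 355.8 in the RPE (log2 fold change in the rRPE against the RPE −0.66; limma adjusted p = 0.714). All rRPE libraries lay below all RPE libraries for this gene, though it was not called.

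*CNTFR*, the binding chain for CNTF, was at 177.7, 380.2 and 180.7 normalized counts in the rRPE, 113.9, 52.3 and 35.2 in the t-rRPE and 99.0, 332.4 and 124.5 in the RPE. The rRPE lay above the t-rRPE in all libraries (log2 fold change 1.93, 95% interval 0.23 to 3.64; limma adjusted p = 0.513) and overlapped the RPE. *IL11RA*, the interleukin-11 binding chain, was at 71.9 to 247.7 normalized counts in the rRPE, 45.6 to 188.5 in the t-rRPE and 94.2 to 336.6 in the RPE, with overlap among all groups.

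*STAT2*, *STAT3* and *STAT5A* each had a positive log2 fold change against the RPE in both operated groups, but of the STAT genes tested limma called only *STAT3*, and only in the rRPE. *STAT2*, which acts downstream of type I interferon receptors, was at 523.9, 385.4 and 491.8 normalized counts in the rRPE, 397.1, 341.6 and 338.9 in the t-rRPE and 195.1, 243.2 and 139.9 in the RPE. Every operated library exceeded every intact one, with log2 fold changes of 1.30 ± 0.43 SE in the rRPE (limma adjusted p = 0.227) and 0.93 in the t-rRPE (adjusted p = 0.416). DESeq2 called *STAT2* in the rRPE against the RPE (adjusted p = 0.0332).

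*STAT5A*, which serves prolactin and growth hormone receptors, was at 1263.9, 1136.4 and 2252.5 normalized counts in the rRPE, 1323.8, 1614.5 and 976.2 in the t-rRPE and 489.1, 1063.7 and 1558.4 in the RPE, with all groups overlapping. Its log2 fold change against the RPE was 0.67 in the rRPE (limma adjusted p = 0.617) and 0.45 in the t-rRPE (adjusted p = 0.689), and the value for the t-rRPE turned to −0.011 without RPE replicate 1.

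Among 17 inhibitors found, *SOCS3* was the only one called by limma. *CISH*, a SOCS family gene induced by STAT5 in mammals, came nearest to the threshold, at 371.6, 663.3 and 1533.9 normalized counts in the rRPE, 290.8, 360.2 and 411.9 in the t-rRPE and 99.9, 151.7 and 104.5 in the RPE. Both operated groups lay wholly above the intact RPE. The log2 fold change was 2.62 ± 0.56 SE in the rRPE against the RPE (95% interval 1.40 to 3.84), with a limma adjusted p of 0.0522 that missed the threshold, and 1.58 in the t-rRPE (0.36 to 2.80; adjusted p = 0.284). *CISH* was called in the rRPE with an offset of 5 (adjusted p = 0.0496), after quantile normalization (0.0489) and by DESeq2 (2.3e-05).

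*SOCS2*, which restrains growth hormone signalling, was at 883.2, 610.0 and 702.2 normalized counts in the rRPE, 1238.1, 1368.1 and 1170.4 in the t-rRPE and 1727.8, 815.8 and 1085.8 in the RPE. The rRPE lay wholly below the t-rRPE (log2 fold change −0.80; limma adjusted p = 0.505), the reverse of the order of *SOCS1* and *SOCS3* between these groups. *PTPN6*, the phosphatase SHP-1, was at 91.9 to 272.1 normalized counts in the rRPE, 0 to 189.0 in the t-rRPE and 74.5 to 205.7 in the RPE. Its log2 fold change of −2.30 in the t-rRPE against the RPE (adjusted p = 0.626) rested on t-rRPE replicate 2, which was at 0, and was 0.017 without it. Over the 17 inhibitors, the median log2 fold change was 0.29 in the rRPE and −0.28 in the t-rRPE against the RPE.

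Of 30 genes described as STAT3 targets in mammals, 20 were tested. *FOS*, an immediate early gene of the AP-1 complex that growth factors also induce through MAP kinase, was at 423.3, 1198.0 and 1158.1 normalized counts in the rRPE, 121.5, 116.7 and 276.3 in the t-rRPE and 15.4, 53.2 and 50.7 in the RPE. As for *IL6ST* and *SOCS3*, all rRPE libraries lay above all t-rRPE libraries and these above all RPE libraries, and it was the only 1 of the 49 other genes with that order. It rose in the rRPE against the RPE (log2 fold change 4.55 ± 0.74 SE, 95% interval 2.92 to 6.18; limma adjusted p = 0.0177), and was not called by limma in the t-rRPE against the RPE (2.15; adjusted p = 0.275). DESeq2 also called *FOS* in the t-rRPE against the RPE (adjusted p = 0.0352) and in the rRPE against the t-rRPE (0.0130). Its call was lost without any 1 of the 6 libraries compared, at adjusted p = 0.0553, 0.133 and 0.104 without rRPE replicate 1, 2 or 3 and 0.0603, 0.0778 and 0.0725 without RPE replicate 1, 2 or 3.

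*CEBPB*, a transcription factor of the acute phase response, was at 173.6, 178.6 and 348.0 normalized counts in the rRPE, 83.6, 263.2 and 108.2 in the t-rRPE and 15.4, 28.2 and 6.9 in the RPE. Every operated library exceeded every intact library. The log2 fold change was 3.83 ± 0.90 SE in the rRPE (limma adjusted p = 0.0732) and 3.11 in the t-rRPE (adjusted p = 0.195) against the RPE, neither of them called, while DESeq2 called both, at adjusted p = 2.2e-04 in the rRPE and 0.00478 in the t-rRPE.

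*IRF1*, a transcription factor induced by STAT proteins, was at 626.4, 877.4 and 1895.2 normalized counts in the rRPE, 0, 820.3 and 275.0 in the t-rRPE and 0, 0 and 84.5 in the RPE. The rRPE lay wholly above the RPE, with a log2 fold change of 7.85 ± 2.36 SE (limma adjusted p = 0.171) that carries the uncertainty of the libraries at 0. The t-rRPE overlapped both other groups.

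*MYC* and *PIM1*, a growth-promoting transcription factor and a survival kinase, are named after their values were seen, because they differed in the t-rRPE from the genes above. *MYC* was at 1057.9, 1217.9 and 1506.1 normalized counts in the rRPE, 896.3, 541.3 and 406.7 in the t-rRPE and 532.4, 538.1 and 547.9 in the RPE. The rRPE exceeded both other groups in every library (log2 fold change against the RPE 1.21 ± 0.34 SE; limma adjusted p = 0.144; DESeq2 adjusted p = 0.0187), while t-rRPE and RPE overlapped. *PIM1* was at 441.6, 1681.6 and 959.9 normalized counts in the rRPE, 186.6, 456.4 and 318.0 in the t-rRPE and 1431.9, 695.3 and 681.6 in the RPE, so that the t-rRPE lay wholly below the RPE (−1.55; adjusted p = 0.277).

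Over the 20 listed targets the median log2 fold change was 0.38 in the rRPE against the RPE, −0.05 in the t-rRPE against the RPE and 0.73 in the rRPE against the t-rRPE (0.62 with genes at the floor set to their bound). Of the 20, 14 were positive in the rRPE and 10 in the t-rRPE against the RPE, and 18 in the rRPE against the t-rRPE. Over all genes tested, 51.5%, 49.8% and 51.5% were positive in these comparisons. These shares can include genes without a read in both groups, whose values differ from 0 only by rounding. The counts include the signs of genes with few reads. *SOCS3* is itself a STAT3 target in mammals but is counted here with the inhibitors.

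Likeness to the 3 called genes was described by Pearson's r of log2(normalized count + 1) over the 9 libraries. It was taken across 9057 genes with a gene symbol and a mean of at least 100 normalized counts, so genes without a symbol were not compared. The libraries share 3 groups, so a gene that differs between groups in the same pattern tends to give a high r, and no test was made. The genes most like *IL6ST* were *FOS* (r = 0.981), *SPOPL* (0.974) and *ATP6V1E1* (0.948), with *STAT3* (0.923) in place 13 and *SOCS3* (0.919) in place 21. Those most like *STAT3* were *NSA2* (0.979), *TNC* (0.967) and *SPTLC1* (0.961), and those most like *SOCS3* were *IRF7* (0.978), *STXBP6* (0.958) and *XPR1* (0.958). *STAT3* and *SOCS3* were less alike (0.765) than either was to *IL6ST*.

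Markers of other cells that a laser-captured strip could hold were summed in each library. In bulk RNA, fewer cells of a type and less RNA per cell cannot be told apart. The 13 of 14 lens markers found summed to 21942 to 50431 normalized counts in the rRPE and 47683 to 403261 in the t-rRPE, against 651 to 1156 in the RPE. Of these, limma called 6 higher in the t-rRPE and 5 in the rRPE against the RPE. *ASL1* was at 17338 to 41516 in the rRPE, 39430 to 332972 in the t-rRPE and 13 to 232 in the RPE. *BFSP2* overlapped, at 125 to 304 in the rRPE, 183 to 966 in the t-rRPE and 75 to 825 in the RPE. The paper reports lens genes as up-regulated in the t-rRPE and proposes that stressed RPE may express them. Whether the transcripts came from RPE or lens cells was not tested. The 8 of 9 endothelial markers found summed to 4161 to 4341 in the rRPE and 2875 to 5349 in the t-rRPE, against 6290 to 10461 in the RPE. Single endothelial markers did not all separate. *CDH5* was at 402 to 654 in the rRPE and 1858 to 3366 in the RPE, but *PECAM1* was at 1972 to 2804 and 1756 to 2325. The lens and endothelial sums both separated the operated groups from the RPE as *IL6ST*, *STAT3* and *SOCS3* did, and their part in those differences was not tested. Among the t-rRPE libraries, replicate 2 had the highest lens sum together with the highest *STAT3* and the lowest *SOCS3* and *SOCS1*. Among the rRPE libraries, replicate 1 had the highest lens sum, but together with the lowest *STAT3*, and also the lowest *SOCS3* and *SOCS1*. The order of *STAT3* by lens sum thus differed between the operated groups, and no such order was tested.

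Leukocytes respond strongly to gp130 cytokines, and the 8 of 10 leukocyte markers found summed to 1370 to 2257 normalized counts in the rRPE, 1331 to 2514 in the t-rRPE and 1456 to 2406 in the RPE, so the groups overlapped. *PTPRC*, which encodes the leukocyte antigen CD45, was at 164.5, 0 and 58.5 in the rRPE, 0, 0 and 83.4 in the t-rRPE and 87.4, 0 and 0 in the RPE. Neural retina markers (9 of 10 found) summed to 10643 to 17986 in the rRPE, 7505 to 9017 in the t-rRPE and 5502 to 11272 in the RPE, so that the rRPE lay wholly above the t-rRPE. Periocular mesenchyme (10 of 10 found; 11720 to 13662 in the rRPE, 9608 to 11713 in the t-rRPE, 11839 to 15170 in the RPE) and erythroid markers (7 of 12 found; 148957 to 375149 in the rRPE, 101749 to 274295 in the t-rRPE, 190685 to 294490 in the RPE) overlapped between the rRPE and the RPE. The mesenchyme sums of the t-rRPE lay wholly below those of the RPE. The part of these sums in the differences of the 7 genes was not tested. No listed marker was at 0 in every library.

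**Figure D4:**
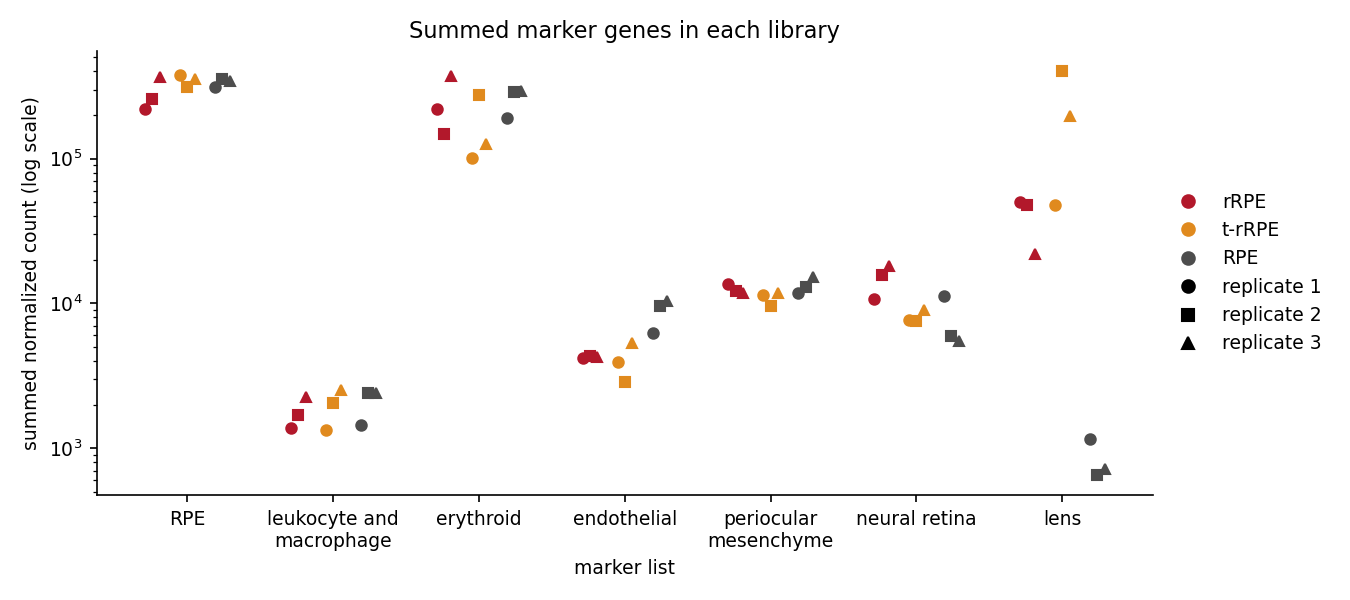
Summed normalized counts (log scale) of 7 marker gene lists in each library, with rRPE, t-rRPE and RPE from left to right within each list; points are libraries, shaped by replicate number. Lens sums are 21942 or more in the operated libraries and at most 1156 in the RPE, endothelial sums are lower in the operated libraries, and leukocyte sums overlap.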

How the data were processed

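The authors trimmed reads with Trim Galore 0.6.1 and cutadapt 1.18, aligned them to GRCg6a with STAR 2.7.3 and counted them over Ensembl 98 genes with StringTie 2.0.4, without strand. The deposited signal is a normalized count, each library's reads divided by a DESeq2 1.22.2 size factor. Every value was a whole multiple of 1 read (0.768 to 1.303 normalized counts, tolerance 0.01, share 1), so reads were recovered.

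Genes whose normalized counts summed to 20 or more over the libraries were fitted as log2(normalized count + 1) in R 4.3.3 with limma 3.58.1 (eBayes with a trend, 1 group-means model of 9 libraries, 6 residual degrees of freedom, no block). Alternatives were offsets of 0.5 and 5, no filter, a mean of at least 10, quantile and upper-quartile scaling, no trend, only the 6 libraries compared, a replicate block, each library left out, and tests of the recovered reads with edgeR 4.0.16 (quasi-likelihood test) or DESeq2 1.42.0 (Wald test). The study shrank its DESeq2 fold changes, which was not done here. The fits were tested on simulated data. Figures and tables used Python 3.11.15.

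Members and lists were chosen with earlier results of these data known. Besides called genes, the text names for each list up to 3 genes with the largest absolute log2 fold change against the RPE among those with a mean of at least 100 normalized counts, and says where a gene falls outside that rule. Some genes that the rule covers are left out and not reported here. Gene levels are not compared between genes, since no lengths were used. Replicate numbers follow the labels, and no sequences were used here.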

Additional observations from a re-analysis of the deposited data

How the results depend on the processing

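The 3 calls of *IL6ST*, *STAT3* and *SOCS3* in the rRPE against the RPE were kept with an offset of 5, without the filter, with a mean of at least 10, under both scalings and with DESeq2. Of the 7 genes, limma without the trend called 0 and the fit of only the 6 libraries compared called 1 (*STAT3*), against 3, and omissions of a library gave 0 to 2. In the t-rRPE against the RPE, DESeq2 called 2 against 0, and omissions gave 0. Over the 56 pathway genes, the rRPE against the RPE had 4 called, 1 without the trend, 2 with only the 6 libraries, 9 with DESeq2 and 0 to 3 with a library left out. DESeq2 called 5 pathway genes in the t-rRPE against the RPE and 2 in the rRPE against the t-rRPE, against 0 in each. The cause of these differences was not tested.

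*JAK2* in the rRPE against the RPE turned to −0.0138 under quantile and −0.026 under upper-quartile scaling, and ranged from −0.20 to 0.30 with a library left out. Other signs turned only on omission of a library, with ranges in the t-rRPE against the RPE of −0.027 to 0.43 for *LIFR*, −0.10 to 0.38 for *JAK2*, −0.011 to 0.82 for *STAT5A*, −3.77 to 0.017 for *PTPN6* and −0.12 to 0.42 for *SOCS2*. In the rRPE against the t-rRPE the ranges were −0.15 to 0.24 for *JAK1* and −0.31 to 0.12 for *JAK2*.

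Over all genes, 170 were called in the rRPE against the RPE, 111 in the t-rRPE against the RPE and 9 in the rRPE against the t-rRPE. The counts in these 3 comparisons, in that order, were 71, 73 and 31 without the trend, 231, 0 and 0 with only the 6 libraries, 101, 48 and 6 with edgeR and 575, 507 and 230 with DESeq2. With a library left out they were 0 to 187, 0 to 109 and 0 to 1. Deviations of same-numbered libraries of different groups were at most weakly correlated (median r = 0.021, −0.031 to 0.060 over 9 pairs). For differently numbered libraries the median r was −0.012 (−0.064 to 0.030 over 18 pairs), and 6 of 9 libraries were closest to their own number. With the replicate number as a block the counts were 132, 64 and 6, and the same 3 of the 7 genes were called in the rRPE against the RPE. With 3 libraries a group and a median SE of 0.611 over all genes, small differences were not detectable.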

Other observations

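Other genes that signal through JAK and STAT proteins were read after the data had been seen, as lists of interferon receptors (5 of 6 tested), interferon response genes (16 of 20) and other JAK-coupled receptors (8 of 13). Of these 29 genes, limma and edgeR called 0 in each of the 3 comparisons. At an unadjusted limma p of 0.05 there were 10 in the rRPE against the RPE, 6 in the t-rRPE against the RPE and 3 in the rRPE against the t-rRPE, beside 12.0%, 12.4% and 9.31% of all genes in these comparisons. DESeq2 called 3, 3 and 0 of the 29, beside 3.48%, 3.07% and 1.39% of all genes. The genes named below were chosen after their values were seen.

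*IRF7*, a regulator of type I interferon genes, was the gene most like *SOCS3* over the 9 libraries among those compared. It was at 540.1, 618.3 and 552.4 normalized counts in the rRPE, 323.4, 286.5 and 474.4 in the t-rRPE and 26.9, 113.4 and 163.7 in the RPE. Its 3 groups did not overlap. The log2 fold change against the RPE was 2.82 ± 0.66 SE in the rRPE (limma adjusted p = 0.0727) and 2.13 in the t-rRPE (adjusted p = 0.222). *IFIH1*, a sensor of double-stranded RNA, was at 78.2, 62.7 and 131.4 in the rRPE, 57.5, 480.6 and 258.1 in the t-rRPE and 0, 28.2 and 0 in the RPE, with both operated groups above the RPE (t-rRPE against RPE, limma adjusted p = 0.121).

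*IFNAR2*, a chain of the type I interferon receptor, was at 2930.9, 2395.0 and 2190.9 normalized counts in the rRPE, 1196.9, 1687.3 and 1820.8 in the t-rRPE and 1482.8, 1278.0 and 1229.5 in the RPE, the rRPE above both other groups (log2 fold change against the RPE 0.91 ± 0.24 SE; limma adjusted p = 0.105). *IL20RA*, a receptor chain for cytokines of the interleukin-10 family, was at 298.5, 430.3 and 374.7 in the rRPE, 72.7, 65.3 and 80.8 in the t-rRPE and 0, 68.0 and 0 in the RPE. The rRPE lay above both other groups, with a log2 fold change against the RPE of 6.47 ± 1.51 SE (limma adjusted p = 0.0724). *PRLR*, the prolactin receptor, was at 192.9, 142.1 and 443.5 in the rRPE, 533.9, 296.8 and 799.0 in the t-rRPE and 0, 54.0 and 130.6 in the RPE, with both operated groups above the RPE and overlapping each other, and was not called in any comparison.

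Other listed genes were lower in the operated groups. *IRF9*, which joins STAT proteins in the interferon-induced transcription complex, was at 73.1, 136.8 and 0 normalized counts in the rRPE, 0, 73.7 and 0 in the t-rRPE and 250.8, 181.5 and 184.4 in the RPE. *IL10RB*, a receptor chain shared by interleukin-10 and lambda interferons, was at 414.2, 490.9 and 475.4 in the rRPE, 47.7, 541.3 and 529.2 in the t-rRPE and 621.8, 627.3 and 629.3 in the RPE. For both genes every operated library lay below every RPE library, and neither was called by limma, where *IRF9* had an adjusted p against the RPE of 0.622 in the rRPE and 0.316 in the t-rRPE.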
